A study of Mus musculus with 16 samples.

Results

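The 8 genes described here encode parts of the Nodal signalling pathway. Nodal and Gdf3 are ligands, Tdgf1 (also called Cripto) is their coreceptor and Acvr2b is a type II receptor. Lefty1, Lefty2 and Cer1 are secreted antagonists, and Smad7 is an intracellular inhibitor. The genes were taken by symbol from a table of read counts for 27179 genes, in which 8 of 8 were found. Of these, 7 passed a filter on low counts, as did 14288 genes in all, and Cer1 did not.

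The study measured polyadenylated RNA in mouse embryonic stem (ES) cells kept in a naive state in 2 media and then released from it. Each medium was sampled at 0 h and at 12, 24 and 40 h after release, with 2 libraries in each of the 8 groups, 16 in all. All the cells had grown in serum with LIF, a cytokine that holds ES cells undifferentiated, and were adapted for 3 passages to either medium. Both media contained LIF and 2i, which is the pair of inhibitors CHIR99021 (3 μM, against GSK3) and PD0325901 (1 μM, against MEK). The medium called serum/LIF+2i also held fetal bovine serum, whereas 2i/LIF was serum-free with the N-2 and B-27 supplements. For release, called exit here, cells were washed and given serum-free medium with neither LIF nor 2i. The protocol gives cells from serum/LIF+2i a base of glutamine-free DMEM and Neurobasal with 2 mM glutamine, and cells from 2i/LIF their own serum-free base. The past medium and the exit base therefore cannot be told apart after 0 h. The protocol names only 24 and 40 h for cells from serum/LIF+2i, but 2 libraries are titled and described as 12 h and were used as such. Neither the ES cell line nor whether 2 libraries of a group came from separate cultures is stated, so p-values measure only the spread between these libraries.

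Nodal is a ligand of the TGF-beta superfamily that binds type I and type II activin receptors together with a coreceptor of the Cripto family. The activated receptors phosphorylate Smad2 and Smad3, which enter the nucleus with Smad4 and act with partners such as Foxh1. Nodal and the Lefty genes are among the targets, so the pathway holds both positive and negative feedback. ES cells make Nodal themselves, and in the embryo the pathway patterns the epiblast and induces mesendoderm.

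Levels are given as CPM, the share of each library's counts scaled by trimmed means (TMM) to a fixed total, and changes as log2 fold changes with their standard errors (SE). A change was called at an adjusted p under 0.05 in edgeR's quasi-likelihood test with Benjamini-Hochberg adjustment across all 14288 genes. That test gave every adjusted p below unless another is named. Library totals ran from 5931381 to 11142744 counts, and the SE of a change carries both the counting error and the spread between libraries. Ribosomal RNA genes took between 0.468% and 1.77% of the counts, the most in serum/LIF+2i 24 h replicate 1. The 6 ES cell markers Pou5f1, Sox2, Nanog, Zfp42, Esrrb and Utf1 were detected in every library, at a summed level that went from 2894 to 3330 CPM at 0 h to 1237 to 1308 CPM at 40 h. Nanog went from 665 to 27.8 CPM from 2i/LIF and from 801 to 15.5 CPM from serum/LIF+2i, and Esrrb from 916 to 37.4 and from 910 to 15.6 CPM. Sox2 and Zfp42 also fell in both media, while Utf1 rose. Pou5f1 ended near its start, at 641 and 635 CPM (0 and 40 h) from 2i/LIF and 707 and 676 CPM from serum/LIF+2i. At 12 h it was higher, at 843 and 942 CPM. The fall of the sum was therefore not shared by all 6 markers. The part of the loss of the falling markers in the falls of the members was not tested. As these are bulk samples, fewer cells expressing a gene and less of its RNA per cell cannot be told apart.

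Per kilobase of the deposited gene length, Tdgf1 was the most abundant of the 8 genes, with a median level over the 16 libraries of 183 CPM per kb. Gdf3 followed at 73.4, Nodal at 28.5 and Lefty1 at 24.3 CPM per kb. Smad7 (12.0), Lefty2 (11) and Acvr2b (10.2) lay close together on the same scale, and Cer1 had a median of 0. The place of Acvr2b rests on its deposited length of 1710 bases. Its longest protein-coding transcript in GENCODE M21 has 3175 bases, and that length would give a lower value per kb.

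**Figure D1:**
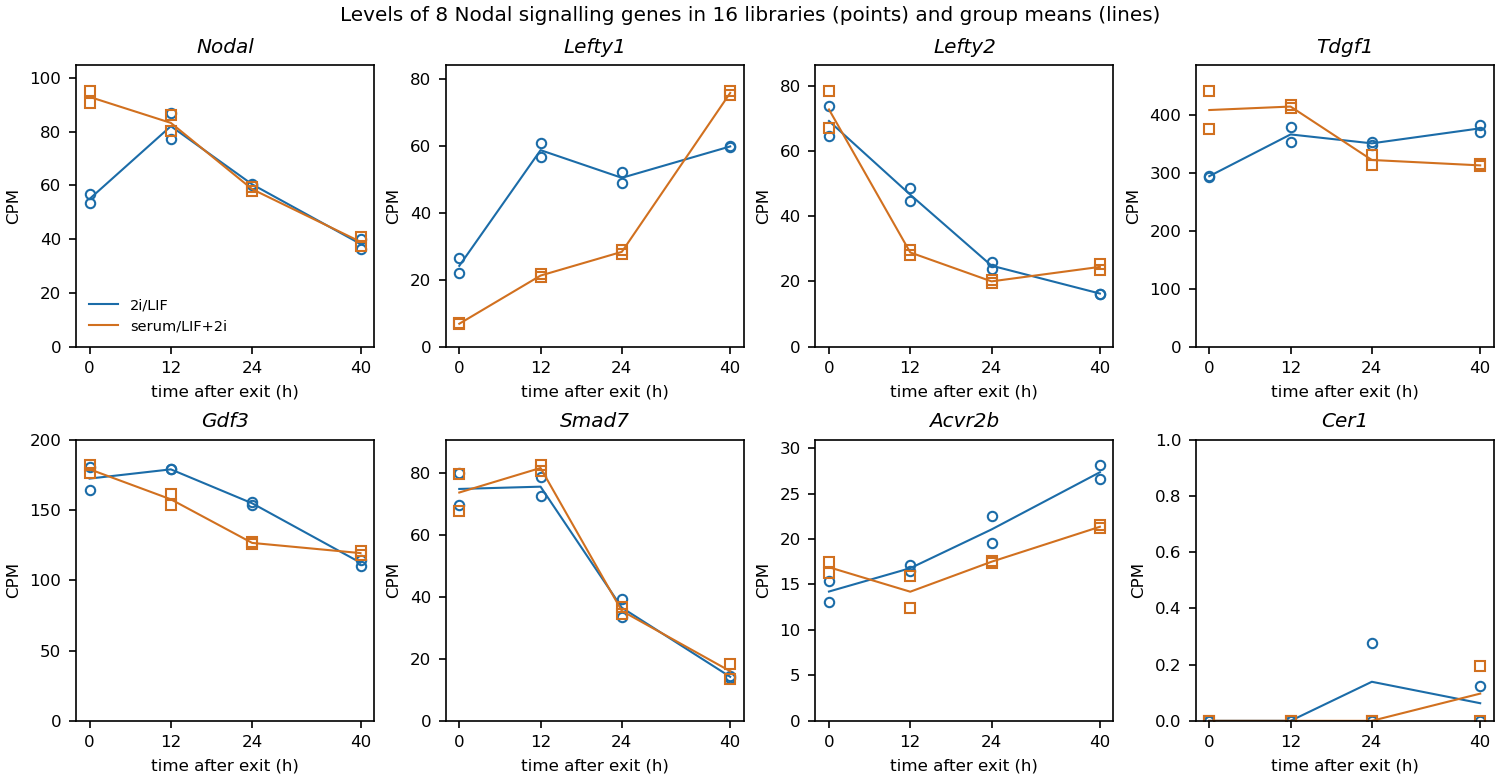
Level of each of the 8 genes (CPM, vertical axes, each from 0) against time after exit (h). Points are the 16 libraries, lines join the means of the 2 libraries of a group, and colours give the medium before exit; the Nodal lines meet from 12 h on, whereas the Lefty1 lines cross between 24 and 40 h.

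Nodal, the ligand that names the pathway, lies on chromosome 10 (GRCm38.p6, chr10:61417972-61425338, plus strand). In 2i/LIF its level was 53.3 and 56.7 CPM before exit, then 86.9 and 77.1 (12 h), 60.1 and 60.6 (24 h) and 36.2 and 40.2 (40 h). The serum/LIF+2i cells held 90.7 and 95.2 CPM before exit, then 80.1 and 86.3 (12 h), 58.0 and 59.2 (24 h) and 37.3 and 40.6 (40 h). Cells from 2i/LIF thus passed through a peak at 12 h, whereas cells from serum/LIF+2i were highest before exit, and the libraries of both media overlapped at 12 and at 40 h.

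Against 0 h, Nodal from 2i/LIF rose by 0.57 ± 0.08 at 12 h on the log2 scale (adjusted p = 1.07e-10) and lay below its starting level at 40 h (-0.53 ± 0.09, adjusted p = 5.82e-08). The 24 h value, 0.13 ± 0.08, did not pass the test (adjusted p = 0.154). In cells from serum/LIF+2i Nodal fell by 0.66 ± 0.07 at 24 h (log2, adjusted p = 7.59e-16) and by 1.26 ± 0.07 at 40 h (adjusted p = 2.68e-33), 2.39-fold. The change at 12 h, -0.15 ± 0.07, passed narrowly (adjusted p = 0.0415), and the call was lost in 13 of 25 alternative analyses, at adjusted p from 0.051 to 0.33. Those 13 included leaving out either 2i/LIF library at 0 h or at 12 h, either serum/LIF+2i library at 40 h, serum/LIF+2i 0 h replicate 2 (adjusted p = 0.27) or 12 h replicate 1 (adjusted p = 0.33).

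The media differed in Nodal at 0 h, where serum/LIF+2i was higher by 0.76 ± 0.08 (log2, adjusted p = 1.26e-15), 1.69-fold. After exit the differences were 0.03 ± 0.07, -0.04 ± 0.07 and 0.03 ± 0.08 at the successive times (adjusted p = 0.805, 0.708 and 0.843). The exit effects, each a change against the medium's own 0 h level, differed between the media by -0.73 ± 0.10 at 12 h (adjusted p = 8.53e-09), -0.80 ± 0.11 at 24 h (adjusted p = 9.05e-10) and -0.73 ± 0.11 at 40 h (adjusted p = 1.08e-07). From 12 to 24 h and from 24 to 40 h Nodal fell in both media, and the differences between those steps were -0.07 ± 0.10 and 0.07 ± 0.11 (adjusted p = 0.702 and 0.763). The difference in exit effect was thus present by 12 h, at which time the levels in the media lay 0.03 ± 0.07 apart.

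The sequences before the start sites of Nodal and Tdgf1 are shown because these were the members with a higher level in serum/LIF+2i at 0 h. Each run is the 250 bases before the annotated start in RefSeq (GRCm38.p6), 5′ to 3′ on the gene's strand, with capitals for matches to the searched letters. RefSeq windows were used for 4 of the 8 genes, Nodal, Tdgf1, Acvr2b and Cer1. Both strands were searched for the Foxh1 letters AATNNACA, the Smad letters CAGAC, the paired Smad letters GTCTAGAC, the TCF letters CTTTGAT and the STAT letters TTCNNNGAA.
Nodal, chr10:61417722-61417971, plus strand: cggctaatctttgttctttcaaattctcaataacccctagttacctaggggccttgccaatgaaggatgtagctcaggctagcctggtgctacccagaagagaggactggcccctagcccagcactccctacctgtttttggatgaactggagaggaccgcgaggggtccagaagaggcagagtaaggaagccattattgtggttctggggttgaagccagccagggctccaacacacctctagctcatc
Tdgf1, chr9:110946159-110946408, minus strand: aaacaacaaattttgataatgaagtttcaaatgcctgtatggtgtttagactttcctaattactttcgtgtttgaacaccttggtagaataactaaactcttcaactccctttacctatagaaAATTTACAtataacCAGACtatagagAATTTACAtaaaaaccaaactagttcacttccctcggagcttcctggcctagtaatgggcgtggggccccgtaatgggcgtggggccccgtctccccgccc
The Nodal window held no match to any of these. The Tdgf1 window held the Foxh1 letters 2 times, as AATTTACA starting 127 and 101 bases before the start, with CAGAC between them at 113 bases. The windows of Acvr2b and Cer1, not printed, each held the Smad letters 1 time, at 233 and 213 bases, and none of the others. The Acvr2b window, chr9:119401928-119402177, lies inside the gene's span, which begins at 119401583. Its distance therefore counts from a start site further along the gene than the first base of that span. Over 32851 RefSeq windows of the same length, 10.9% held AATNNACA at least once and 1.12% held it 2 or more times, and 42.2% held CAGAC. The other letters were in 0.167% (GTCTAGAC), 3.21% (CTTTGAT) and 7.02% (TTCNNNGAA) of those windows. A match describes the letters in this window and not binding.

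Gdf3, a ligand related to Nodal that also needs the coreceptor, lies on chromosome 6 (chr6:122605403-122610087, minus strand). Its level in 2i/LIF was 164 and 180.5 CPM before exit, then 179 and 179 (12 h), 156 and 154 (24 h) and 110.5 and 115 (40 h). For serum/LIF+2i the values were 182 and 176 CPM before exit, then 154 and 161 (12 h), 128 and 126 (24 h) and 118 and 121 (40 h). The decline began within 12 h in cells from serum/LIF+2i and after 12 h in cells from 2i/LIF, and at 0 h the 2 media overlapped.

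At 40 h Gdf3 had fallen by 0.62 ± 0.05 from 2i/LIF (log2, adjusted p = 3.31e-20) and by 0.59 ± 0.05 from serum/LIF+2i (adjusted p = 7.72e-21). The exit effects at 40 h differed by 0.03 ± 0.07 (adjusted p = 0.792). On the way there serum/LIF+2i was lower, by -0.18 ± 0.05 at 12 h (adjusted p = 0.00206) and -0.29 ± 0.05 at 24 h (adjusted p = 1.44e-06). The last step, from 24 to 40 h, was -0.46 ± 0.05 from 2i/LIF (adjusted p = 5.7e-13) and -0.09 ± 0.05 from serum/LIF+2i (adjusted p = 0.146), a difference of 0.38 ± 0.07 (adjusted p = 4.74e-05). Both ligands were thus lower at 40 h than at 0 h in both media, while at 0 h the difference between the media was called for Nodal and was 0.05 ± 0.05 for Gdf3 (adjusted p = 0.466). The Gdf3 change at 24 h from 2i/LIF, -0.16 ± 0.05 (adjusted p = 0.00622), was lost without 2i/LIF 0 h replicate 2 (-0.09, adjusted p = 0.256). The difference in Gdf3 exit effect at 24 h was -0.34 ± 0.07 (adjusted p = 9.21e-05). At 12 h it was -0.23 ± 0.07 (adjusted p = 0.0195), and that call was lost in 6 of 25 alternatives: with the DESeq2 Wald test (adjusted p = 0.15) and without replicate 1 of 2i/LIF 0 h (0.236), 2i/LIF 12 h (0.0675), serum/LIF+2i 0 h (0.0843) or serum/LIF+2i 12 h (0.131), or replicate 2 of 2i/LIF 12 h (0.0611). The 12 h difference in level was lost without serum/LIF+2i 12 h replicate 1 (-0.15, adjusted p = 0.0583).

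Tdgf1, the coreceptor that lets Nodal and Gdf3 engage the activin receptors, lies on chromosome 9 (chr9:110939608-110946158, minus strand). In 2i/LIF it was at 293 and 294 CPM before exit, then 379 and 353 (12 h), 354 and 347 (24 h) and 371 and 382 (40 h). The matching serum/LIF+2i libraries gave 441 and 375 CPM before exit, then 411 and 417 (12 h), 331 and 313 (24 h) and 311 and 314 (40 h). The lowest group was 2i/LIF before exit, and the 2 libraries of serum/LIF+2i at 0 h stood the furthest apart.

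Tdgf1 moved in opposite directions in the 2 media. From 2i/LIF it rose by 0.32 ± 0.05 at 12 h (log2, adjusted p = 3.9e-08), 0.25 ± 0.05 at 24 h (adjusted p = 3.71e-06) and 0.36 ± 0.05 at 40 h (adjusted p = 5.48e-10). The 12 h value from serum/LIF+2i was 0.02 ± 0.04 (adjusted p = 0.719), after which it fell by 0.34 ± 0.04 at 24 h (adjusted p = 6.65e-10) and by 0.38 ± 0.04 at 40 h (adjusted p = 1.17e-11). All these are changes of under 1.5-fold.
The exit effects differed by -0.29 ± 0.06 at 12 h (adjusted p = 0.000789), -0.60 ± 0.06 at 24 h (adjusted p = 3.34e-11) and -0.74 ± 0.06 at 40 h (adjusted p = 7.78e-15). The steps from 12 to 24 h differed by -0.30 ± 0.06 (adjusted p = 0.000229). The level in serum/LIF+2i was higher by 0.47 ± 0.05 at 0 h (adjusted p = 4.54e-13) and by 0.18 ± 0.04 at 12 h (adjusted p = 0.00101), and lower at 40 h (-0.27 ± 0.04, adjusted p = 1.6e-06), so the order of the media turned over. Without serum/LIF+2i 0 h replicate 1, the 441 CPM library, the 12 h difference in exit effect was -0.17 (adjusted p = 0.0593) and the 12 h change from serum/LIF+2i was 0.14 (adjusted p = 0.0068). The 12 h difference in level was lost without 2i/LIF 12 h replicate 2 (0.12, adjusted p = 0.0802). At 24 h the level difference was -0.12 ± 0.04 (adjusted p = 0.0279), and it was lost in 9 of 25 alternatives, at adjusted p from 0.0572 to 0.272, the highest without serum/LIF+2i 24 h replicate 2. The other 8 were the DESeq2 Wald test, library-size scaling, and leaving out either library of 2i/LIF at 0 h, of 2i/LIF at 24 h or of serum/LIF+2i at 40 h. Of the 50-base windows of the Tdgf1 transcript, 12.5% also occur in the pseudogene Tdgf1-ps1, so part of its reads could be placed in either.

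Acvr2b encodes a type II activin receptor, which binds Nodal and activins (chr9:119401583-119442148, plus strand). In 2i/LIF its level was 13.1 and 15.3 CPM before exit, then 17.1 and 16.4 (12 h), 22.5 and 19.6 (24 h) and 26.6 and 28.1 (40 h). In serum/LIF+2i and after it the levels were 17.5 and 16.3 CPM before exit, then 12.4 and 16 (12 h), 17.4 and 17.6 (24 h) and 21.2 and 21.5 (40 h). Both media ended at their highest level, with all 4 libraries at 40 h above all 4 at 0 h.

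Acvr2b from 2i/LIF rose by 0.56 ± 0.14 at 24 h (log2, adjusted p = 0.000428) and by 0.93 ± 0.13 at 40 h (adjusted p = 7.76e-10), 1.91-fold. The rise at 40 h from serum/LIF+2i was 0.34 ± 0.12 (adjusted p = 0.0127), and the exit effects at 40 h differed by -0.60 ± 0.19 (adjusted p = 0.00949). Its counts ran from 76 to 246 per library. The serum/LIF+2i rise was lost with the DESeq2 Wald test (adjusted p = 0.0528) and without serum/LIF+2i 0 h replicate 2 (0.29, adjusted p = 0.101). The 40 h difference in exit effect was lost with the DESeq2 Wald test (adjusted p = 0.0726) and without 2i/LIF 0 h replicate 1 (-0.49, adjusted p = 0.0816) or serum/LIF+2i 0 h replicate 1 (-0.55, adjusted p = 0.0504).

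Lefty1 and Lefty2 encode closely related antagonists that block Nodal and its coreceptor, and both are targets of the pathway. They lie in the same orientation on chromosome 1, Lefty2 at chr1:180893108-180899107 and Lefty1 at chr1:180935022-180938401, with 35914 bases between them. Their coding sequences are 1107 bases each in GENCODE M21 (GRCm38) and are the same at 1017 positions (91.9%). The stretches below are shown because the results turn on telling the 2 genes apart by sequence. They are bases 34 to 93 of each coding sequence, the 60-base window with the most differences, and its 18 differing bases are in capitals.
Lefty1: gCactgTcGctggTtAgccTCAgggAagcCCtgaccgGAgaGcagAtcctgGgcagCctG
Lefty2: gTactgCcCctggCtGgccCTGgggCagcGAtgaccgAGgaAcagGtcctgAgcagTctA
Of the 50-base windows along each whole transcript, 17.9% for Lefty1 and 11.6% for Lefty2 also occur in another gene's transcript. At 100 bases the shares were 4.8% and 3.07%. How reads that fit both genes were counted is not given in the sources used here.

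Lefty1 in 2i/LIF was at 21.9 and 26.4 CPM before exit, then 56.6 and 61.0 (12 h), 48.9 and 52.1 (24 h) and 60 and 59.8 (40 h). Cells of serum/LIF+2i had 7.05 and 6.61 CPM before exit, then 20.7 and 21.8 (12 h), 27.7 and 29.0 (24 h) and 76.5 and 75.3 (40 h). Serum/LIF+2i before exit was the lowest of the 8 groups and serum/LIF+2i at 40 h the highest, and neither overlapped the group next to it.
In cells from serum/LIF+2i Lefty1 rose by 1.64 ± 0.16 at 12 h (log2, adjusted p = 1.66e-17), by 2.05 ± 0.14 at 24 h (adjusted p = 2.99e-26) and by 3.47 ± 0.12 at 40 h (adjusted p = 5.94e-55). From 2i/LIF the rise was 1.28 ± 0.10 at 12 h (adjusted p = 5.49e-23), 1.05 ± 0.10 at 24 h (adjusted p = 3.96e-17) and 1.3 ± 0.1 at 40 h (adjusted p = 2.19e-24), 2.47-fold. Most of the rise from 2i/LIF was thus present by 12 h, whereas from serum/LIF+2i the step from 24 to 40 h alone was 1.42 ± 0.08 (adjusted p = 2.44e-34).

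The exit effects on Lefty1 differed by 0.36 ± 0.20 at 12 h (adjusted p = 0.279), 1.00 ± 0.19 at 24 h (adjusted p = 1.24e-05) and 2.17 ± 0.17 at 40 h (adjusted p = 1.01e-20). The steps differed by 0.63 ± 0.13 from 12 to 24 h (adjusted p = 0.000118) and by 1.17 ± 0.11 from 24 to 40 h (adjusted p = 2.92e-15). In level, serum/LIF+2i started lower by -1.83 ± 0.16 (adjusted p = 7.05e-19), 3.55-fold, was still lower at 12 h (-1.46 ± 0.09) and 24 h (-0.83 ± 0.09), and was higher at 40 h by 0.34 ± 0.07 (adjusted p = 4.24e-05). At 0 h the media thus differed in opposite directions in Nodal, which was higher in serum/LIF+2i, and Lefty1, which was lower. This did not extend to the other ligand or the other Lefty gene. Their differences at 0 h were 0.05 ± 0.05 for Gdf3 (adjusted p = 0.466) and 0.07 ± 0.08 for Lefty2 (adjusted p = 0.556). The small steps of Lefty1 from 2i/LIF were -0.22 ± 0.08 from 12 to 24 h (adjusted p = 0.0257) and 0.25 ± 0.08 from 24 to 40 h (adjusted p = 0.00782). The first was lost with the DESeq2 Wald test (adjusted p = 0.134) and without 2i/LIF 12 h replicate 2 or 24 h replicate 1 (adjusted p = 0.215 and 0.213), and the second without 2i/LIF 24 h replicate 1 (0.20, adjusted p = 0.119).

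Lefty2 went the other way. In 2i/LIF it was at 64.8 and 73.8 CPM before exit, then 44.7 and 48.7 (12 h), 23.7 and 26.0 (24 h) and 16.3 and 16.3 (40 h). The serum/LIF+2i series read 67.1 and 78.6 CPM before exit, then 28.2 and 29.6 (12 h), 19.7 and 20.4 (24 h) and 23.5 and 25.5 (40 h). The media overlapped at 0 h, and every library after exit was below every library before it.
Lefty2 from 2i/LIF fell by 0.57 ± 0.08 at 12 h (log2, adjusted p = 4.69e-09), by 1.49 ± 0.10 at 24 h (adjusted p = 4.22e-28) and by 2.09 ± 0.10 at 40 h (adjusted p = 2.09e-38), 4.26-fold. The fall from serum/LIF+2i was by 1.33 ± 0.09 at 12 h (adjusted p = 1.37e-27), by 1.86 ± 0.09 at 24 h (adjusted p = 3.22e-38) and by 1.58 ± 0.09 at 40 h (adjusted p = 9.57e-35). The fall was faster from serum/LIF+2i, with a difference of exit effects of -0.76 ± 0.12 at 12 h (adjusted p = 1.39e-06), and ended less deep, with a difference of 0.52 ± 0.14 at 40 h (adjusted p = 0.00278).
The steps from 24 to 40 h were -0.61 ± 0.13 from 2i/LIF (adjusted p = 2.62e-05) and 0.29 ± 0.11 from serum/LIF+2i (adjusted p = 0.0178), a difference of 0.89 ± 0.17 (adjusted p = 1.75e-05). Accordingly, Lefty2 was lower in serum/LIF+2i at 12 h (-0.69 ± 0.09, adjusted p = 1.5e-09) and higher at 40 h (0.58 ± 0.12, adjusted p = 2.89e-05). The rise from 24 to 40 h was lost with the DESeq2 Wald test (adjusted p = 0.069) and without serum/LIF+2i 24 h replicate 1 (0.102), 24 h replicate 2 (0.0537) or 40 h replicate 2 (0.157). At 24 h the difference of exit effects was -0.38 ± 0.14 (adjusted p = 0.0436) and was lost in 14 of 25 alternatives, at adjusted p from 0.0501 to 0.289, of which 10 left out a library: either one of 2i/LIF 12 h, serum/LIF+2i 24 h or serum/LIF+2i 40 h, replicate 1 of 2i/LIF 0 h or serum/LIF+2i 12 h, or replicate 2 of 2i/LIF 24 h or serum/LIF+2i 0 h. The 24 h difference in level, -0.31 ± 0.12 (adjusted p = 0.033), was lost in 6 of 25, at adjusted p from 0.0506 to 0.232, with the DESeq2 Wald test, with library-size scaling and without any 1 of the 4 libraries compared. For Lefty2 the 25 include the alternative with the counts of Lefty1 and Lefty2 added, which replaces the gene and was not counted as a loss.

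Because the 2 genes moved in opposite directions, their balance changed more than their sum. Per kilobase, Lefty1 divided by Lefty2 was 0.534 ± 0.022 (SD, n = 2) at 0 h in 2i/LIF and 1.93 ± 0.02, 3.12 ± 0.06 and 5.64 ± 0.02 at 12, 24 and 40 h. The ratio from serum/LIF+2i was 0.145 ± 0.023 at 0 h and 1.13 ± 0.01, 2.17 ± 0.02 and 4.77 ± 0.32 at 12, 24 and 40 h (SD, n = 2). Per kb, Lefty2 was the more abundant gene before exit in both media and Lefty1 the more abundant from 12 h on, with the ratio lower from serum/LIF+2i at each time. In CPM, without the division by length, Lefty1 was still the lower one at 12 h from serum/LIF+2i, at 21.3 against 28.9 CPM.
The summed level of both genes in 2i/LIF was 93.5 ± 9.6 CPM (SD, n = 2) before exit and 105 ± 6, 75.4 ± 3.9 and 76.2 ± 0.1 CPM after 12, 24 and 40 h. The sum from serum/LIF+2i was 79.7 ± 7.8, 50.2 ± 1.8, 48.4 ± 1.5 and 100.4 ± 0.5 CPM (SD, n = 2). When the counts of both were added and tested as 1 gene, several directions stated above for Lefty1 or Lefty2 alone did not hold for the sum.

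**Figure D2:**
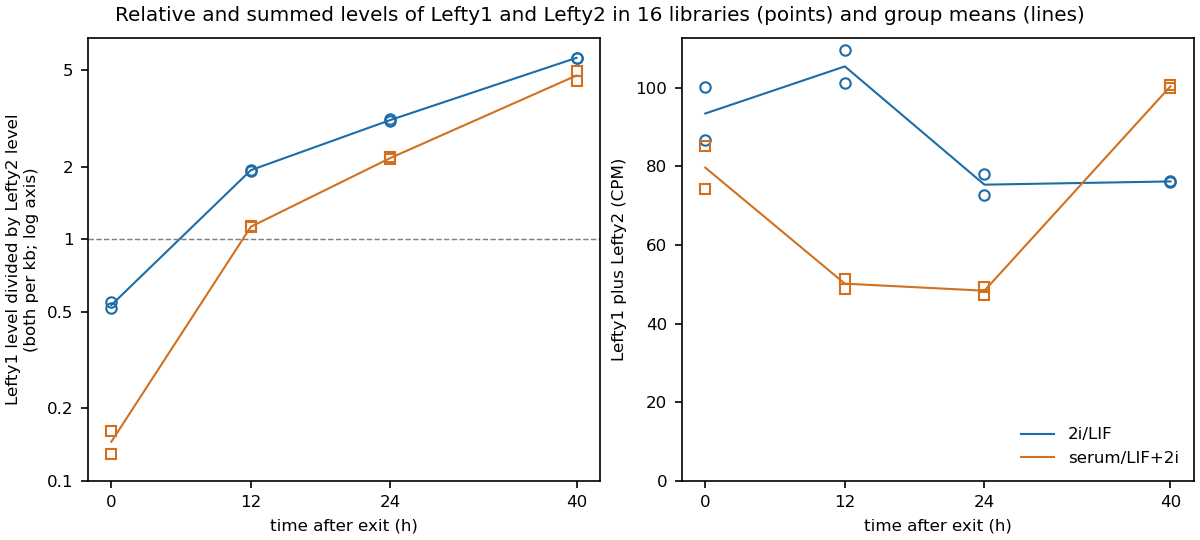
Left, the Lefty1 level divided by the Lefty2 level, both per kb, on a log axis; right, the summed level of both in CPM from 0, each against time after exit (h). Points are libraries and lines join group means; the ratio passes 1 between 0 and 12 h in both media, while the sum dips from serum/LIF+2i to 48.4 CPM at 24 h and returns to 100.4 CPM at 40 h.

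Cer1, a secreted antagonist of Nodal, BMP and Wnt made by the anterior endoderm of the embryo (chr4:82881751-82885151, minus strand), had 5 counts over the 16 libraries. It was at 0 in 13 libraries, and 3 libraries held 1 or 2 counts each, 2i/LIF 24 h replicate 1, 2i/LIF 40 h replicate 1 and serum/LIF+2i 40 h replicate 2. No library passed the floor of 3 counts, so Cer1 was not detectable at this depth and no fold was computed.

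Smad7, which binds the type I receptors and blocks Smad phosphorylation and is itself induced by TGF-beta family signals, lies on chromosome 18 (GRCm38.p6, plus strand). In 2i/LIF it was at 69.5 and 80.0 CPM before exit, then 72.4 and 78.6 (12 h), 33.6 and 39.4 (24 h) and 14.5 and 13.9 (40 h). Its serum/LIF+2i levels were 79.6 and 67.6 CPM before exit, then 82.4 and 80.6 (12 h), 34.3 and 36.6 (24 h) and 18.4 and 13.6 (40 h). The times separated into 3 levels, 0 and 12 h together, then 24 h, then 40 h, and the media overlapped at 0, 24 and 40 h.
From 2i/LIF Smad7 was at 0.01 ± 0.08 against 0 h at 12 h (log2, adjusted p = 0.937), fell by 1.04 ± 0.09 at 24 h (adjusted p = 1.35e-17) and by 2.40 ± 0.11 at 40 h (adjusted p = 1.88e-35), 5.27-fold. In serum/LIF+2i cells it was at 0.15 ± 0.08 at 12 h (adjusted p = 0.0994), and fell by 1.05 ± 0.09 at 24 h (adjusted p = 1.4e-19) and by 2.19 ± 0.10 at 40 h (adjusted p = 1.53e-36), 4.56-fold. Its exit effects differed between the media by 0.14 ± 0.11, -0.01 ± 0.13 and 0.21 ± 0.16 at 12, 24 and 40 h (adjusted p = 0.538, 0.98 and 0.358). Smad7 was the only one of the 7 tested genes for which none of the 4 differences in level, 3 differences of exit effects and 2 differences of steps between the media was called. Its 12 h value from serum/LIF+2i passed the test without a low-count filter (0.17, adjusted p = 0.047) and without serum/LIF+2i 0 h replicate 1 (0.27, adjusted p = 0.0089).

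Counted together, 4 of the 7 tested genes were called at 12 h from 2i/LIF, 3 higher and 1 lower, where 44.7% of all genes tested were called (21% higher, 23.7% lower). At 24 h it was 6 (3 higher, 3 lower) against 58.8% of all genes (29.2% higher, 29.6% lower), and at 40 h 7 (3 higher, 4 lower) against 68.8% (34.1% higher, 34.7% lower). From serum/LIF+2i 4 were called at 12 h (1 higher, 3 lower) against 51.2% (25.3% higher, 25.9% lower). At 24 h 6 were called (1 higher, 5 lower) against 64.4% (32.4% higher, 32% lower), and at 40 h 7 (2 higher, 5 lower) against 70.5% (35.3% in each direction). With so many of all genes called in each of these comparisons, a call by itself set the members little apart from the rest. Their median change at 40 h was -0.53 from 2i/LIF and -0.59 from serum/LIF+2i, against 0.005 and -0.003 over all genes. The comparisons of a medium share its 0 h libraries.

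Between consecutive times, 6 were called from 12 to 24 h in 2i/LIF (1 higher, 5 lower; 35.1% of all genes, 17.4% higher and 17.7% lower) and 6 from 24 to 40 h (2 higher, 4 lower; 46.7% of all genes, 22.2% higher and 24.5% lower). From serum/LIF+2i 6 were called from 12 to 24 h (1 higher, 5 lower; 48.4% of all genes, 24.2% in each direction) and 5 from 24 to 40 h (3 higher, 2 lower; 50.5% of all genes, 25.9% higher and 24.6% lower). The step of 12 to 24 h was the one in which most members fell in both media. In the later step from serum/LIF+2i the antagonists Lefty1 and Lefty2 and the receptor Acvr2b rose while Nodal and Smad7 fell. Among the steps from 2i/LIF, the Acvr2b rise from 12 to 24 h, 0.33 ± 0.13 (adjusted p = 0.0437), was lost in 8 of 25 alternatives, at adjusted p from 0.0519 to 0.361, the highest without 2i/LIF 24 h replicate 1. Those 8 were the DESeq2 Wald test, no low-count filter, no ribosomal RNA genes, and leaving out that library, either 2i/LIF library at 12 h or either serum/LIF+2i library at 40 h. Its rise from 24 to 40 h, 0.37 ± 0.12 (adjusted p = 0.00696), was lost without replicate 2 of 2i/LIF at 24 h (adjusted p = 0.123) or at 40 h (0.0614). Lefty1 from 2i/LIF fell by 0.22 ± 0.08 from 12 to 24 h (adjusted p = 0.0257), which was lost with the DESeq2 Wald test (adjusted p = 0.134) and without 2i/LIF 12 h replicate 2 (0.215) or 24 h replicate 1 (0.213), and its rise from 24 to 40 h, 0.25 ± 0.08 (adjusted p = 0.00782), was lost without 2i/LIF 24 h replicate 1 (0.119). The Acvr2b rise from 24 to 40 h from serum/LIF+2i, 0.29 ± 0.11 (adjusted p = 0.0294), was lost in 6 of 25 alternatives, among them leaving out any 1 of its 4 libraries (adjusted p from 0.0946 to 0.117).

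Between the media, 3 were called at 0 h, Nodal and Tdgf1 higher and Lefty1 lower in serum/LIF+2i (33% of all genes, 14.6% higher and 18.4% lower). At 12 h 4 were called, 1 higher and 3 lower (30.3% of all genes, 14.8% higher and 15.5% lower), and at 24 h 4, all lower (31.1% of all genes, 14.1% higher and 17% lower). At 40 h 4 were called, Lefty1 and Lefty2 higher and Tdgf1 and Acvr2b lower (27.3% of all genes, 13.9% higher and 13.4% lower). The Acvr2b difference at 40 h, -0.36 ± 0.11 (adjusted p = 0.00825), was lost with the DESeq2 Wald test (adjusted p = 0.113) and without 2i/LIF 40 h replicate 2 (-0.32, adjusted p = 0.0807) or serum/LIF+2i 40 h replicate 1 (-0.35, adjusted p = 0.0562). The 24 h count fell to 2 under some alternatives, as given above for Lefty2 and Tdgf1.

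Exit effects that differed between the media were called for 4 members at 12 h, Nodal, Lefty2, Tdgf1 and Gdf3, each lower in serum/LIF+2i, against 9.2% of all genes (4.8% higher, 4.4% lower). Over all genes, 52.2% of the 12 h calls were higher in serum/LIF+2i, and this share was 41.3% when ribosomal RNA genes were left out before scaling. At 24 h 5 members were called, 1 higher and 4 lower, against 20.8% of all genes (9.77% higher, 11% lower). At 40 h 5 were called, Lefty1 and Lefty2 higher and Nodal, Tdgf1 and Acvr2b lower, against 27.6% (14.8% higher, 12.8% lower). The steps differed for 2 members from 12 to 24 h (17.1% of all genes, 7.21% higher and 9.87% lower), Lefty1 higher and Tdgf1 lower. From 24 to 40 h they differed for 3, Lefty1, Lefty2 and Gdf3, all higher in serum/LIF+2i (12.2% of all genes, 6.57% higher and 5.63% lower).

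**Figure D3:**
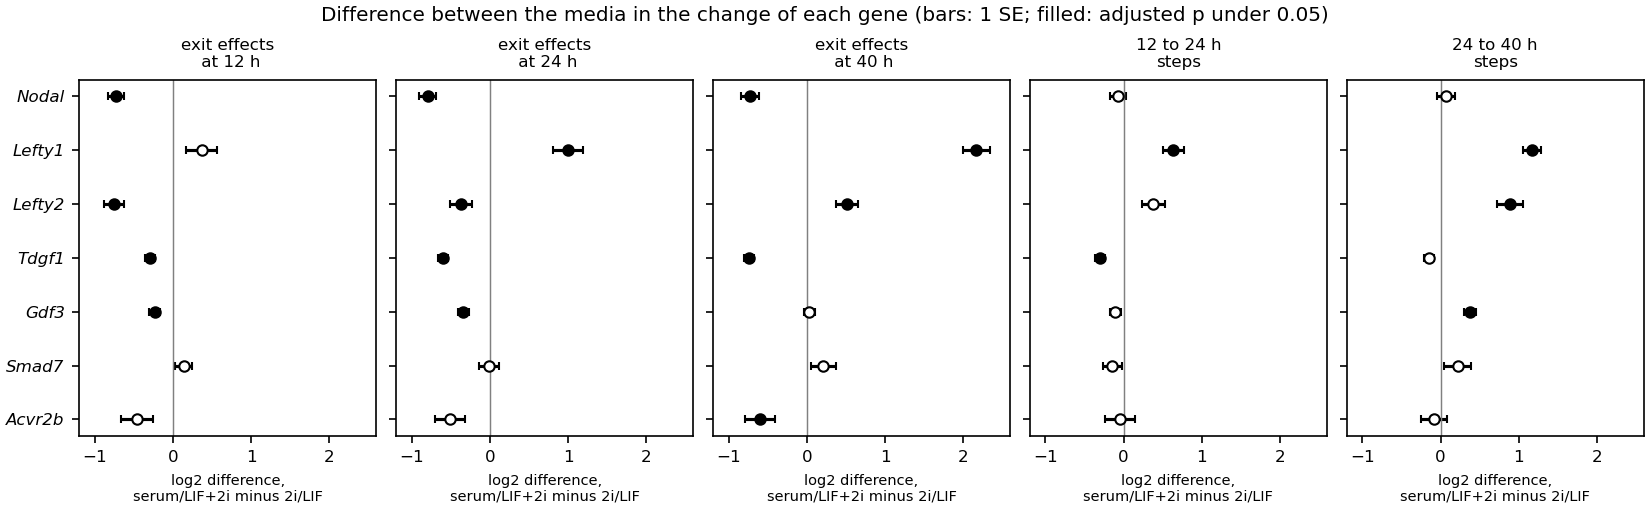
Difference between the media, serum/LIF+2i minus 2i/LIF, in the change of each of the 7 tested genes (log2, horizontal axes, bars of 1 SE), with 1 panel for each of 3 exit effects against 0 h and 2 steps between times; filled points had an adjusted p under 0.05. Nodal lies between -0.80 and -0.73 in the 3 exit effects and near 0 in both steps, whereas Lefty1 moves from 0.36 at 12 h to 2.17 at 40 h.

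The order of the 8 groups differed from gene to gene. Nodal ran from serum/LIF+2i at 0 h (92.9 CPM, mean of 2 libraries) down to 2i/LIF at 40 h (38.2 CPM), and its 12 h groups overlapped each other, as did its 40 h groups. Gdf3 ran from serum/LIF+2i at 0 h (179 CPM) down to 2i/LIF at 40 h (113 CPM), and its upper 3 groups overlapped in sequence. Tdgf1 was highest in serum/LIF+2i at 12 h (414 CPM), but its upper 5 groups overlapped each other in sequence. Lefty1 ran from serum/LIF+2i at 40 h (75.9 CPM) down to serum/LIF+2i at 0 h (6.83 CPM), and only 2i/LIF at 12 and at 40 h overlapped. Over the 8 group means the log2 levels of Gdf3 and Smad7 had a Pearson r of 0.926, those of Nodal and Smad7 0.891, those of Smad7 and Acvr2b -0.898 and those of Lefty1 and Lefty2 -0.621. These describe 8 groups that share media and times, and carry no test.

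By the same measure (Pearson r of log2 CPM over 8 group means, among the 10688 genes averaging 5 CPM or more), the genes most like Nodal were Tacc3, Ufc1 and Ppih, with r from 0.978 to 0.979. For Gdf3 they were Abcd3, Hcfc1r1 and Mok (0.984 to 0.989), and for Tdgf1 Larp7, Elob and Ranbp6 (0.911 to 0.958). For Acvr2b they were Dynlt1f, Rpf2 and Psmd1 (0.964 to 0.966). Lefty1 was most like Rbbp6, Dhcr7 and Dlg3 (0.960 to 0.975), Lefty2 most like Smyd3, Pigh and Fut10 (0.982 to 0.995), and Smad7 most like Grhl3, Mep1b and Myof (0.994 to 0.996). The Smad7 pattern was common, with 259 genes at an r over 0.95, whereas 6 genes reached this for Lefty1 and 1 for Tdgf1.

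The other genes of the Nodal and activin pathway were taken from a list of 36, of which 28 passed the low-count filter. At 40 h from 2i/LIF 22 of the 28 were called, 8 higher and 14 lower, with a median change of -0.11. From serum/LIF+2i 24 of 28 were called, 12 higher and 12 lower, with a median of 0.02. The all-gene shares are those given for the members at 40 h (68.8% and 70.5%), and the 3 genes at or under 3 counts in a group left both medians as they were when set to their bounds. The genes that did not pass the filter were Gdf1, Inhba, Pcsk5, Acvr1c, Cfc1, Fstl3, Mixl1 and Lhx1.

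Among the ligands and their processing enzymes, Inhbb, the beta-B subunit of activin and inhibin, rose early and ended low. Its level was 3.66 ± 1.27 CPM (SD, n = 2) at 0 h in 2i/LIF and 30.8 ± 0.6, 21.5 ± 0.3 and 1.24 ± 0.02 at 12, 24 and 40 h. From serum/LIF+2i it went from 1.98 ± 1.14 to 39.5 ± 1.2, 15.5 ± 1.9 and 0.323 ± 0.091 CPM, the last from 3 and 4 counts. At 12 h Inhbb was higher than at 0 h by 3.05 ± 0.19 (log2, adjusted p = 1.84e-30) and 4.3 ± 0.19 (adjusted p = 6.77e-42), and at 40 h it was below 0 h, with changes of -1.57 ± 0.38 (adjusted p = 0.000144) and -2.58 ± 0.54 (adjusted p = 1.15e-05). Pcsk6, a convertase that cleaves the Nodal precursor, fell by 2.82 ± 0.09 from 2i/LIF and by 2.85 ± 0.08 from serum/LIF+2i at 40 h (log2, adjusted p = 5.73e-55 and 4.5e-62), and the falls differed by -0.03 ± 0.14 (adjusted p = 0.92). Furin, another convertase, fell by 1.01 ± 0.10 from 2i/LIF and by 0.38 ± 0.10 from serum/LIF+2i (adjusted p = 3.59e-16 and 0.000445).

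Of the 4 tested receptor genes, Acvr1b, the type I receptor used by Nodal and activin, fell by 1.54 ± 0.09 from 2i/LIF and by 0.85 ± 0.08 from serum/LIF+2i at 40 h (log2, adjusted p = 5.3e-34 and 4.05e-17). Tgfbr2, the type II receptor for TGF-beta, went from 11.2 ± 0.5 CPM to 0.397 ± 0.207 CPM (2 and 4 counts) from 2i/LIF, and from 1.84 ± 0.73 to 0.909 ± 0.055 CPM from serum/LIF+2i (SD, n = 2). The fall of Tgfbr2 from serum/LIF+2i (adjusted p = 0.0443) was lost with the DESeq2 Wald test (0.111), library-size scaling (0.0656) and no low-count filter (0.067), and without serum/LIF+2i 0 h replicate 1 (-0.53, 0.472), 40 h replicate 1 (0.0957) or 40 h replicate 2 (0.12), all adjusted p. Acvr2a, the type II receptor related to Acvr2b, rose by 0.60 ± 0.12 from serum/LIF+2i (adjusted p = 6.56e-06) and was at -0.00 ± 0.13 from 2i/LIF (adjusted p = 0.977). At 40 h the difference of exit effects was called for 4 of 4 tested receptors on the list, with serum/LIF+2i higher (27.6% of all genes were called, 14.8% higher), whereas it was lower for the member Acvr2b. The Acvr2a call was lost with DESeq2 (adjusted p = 0.0552) and without replicate 2 of 2i/LIF 0 h (0.139) or serum/LIF+2i 0 h (0.0866), and that of the type I receptor Tgfbr1 without serum/LIF+2i 0 h replicate 2 (adjusted p = 0.099). In level, 2 of these 4 were called between the media at 0 h, Acvr1b and Tgfbr2, both lower in serum/LIF+2i as given below (33% of all genes were called). At 40 h 1 of the 4 was called in level, higher in serum/LIF+2i (27.3% of all genes).

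Among the Smads and their partners, Smad2 rose by 0.22 ± 0.06 from 2i/LIF and 0.56 ± 0.06 from serum/LIF+2i at 40 h (log2, adjusted p = 0.000988 and 5.75e-16). Foxh1, the DNA-binding partner, rose by 0.72 ± 0.07 and 0.87 ± 0.07 (adjusted p = 5.94e-18 and 9.85e-22), and Trim33, a chromatin factor that binds Smads, by 0.73 ± 0.05 and 0.63 ± 0.05 (adjusted p = 9.51e-30 and 1.63e-25). Smad3 fell by 0.49 ± 0.11 from 2i/LIF (adjusted p = 2.55e-05) and was at -0.03 ± 0.10 from serum/LIF+2i (adjusted p = 0.808).

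Of the 12 inhibitors tested on the list, 5 rose and 4 fell at 40 h from 2i/LIF (68.8% of all genes were called, 34.1% higher and 34.7% lower), and 6 rose and 4 fell from serum/LIF+2i (70.5% of all genes, 35.3% in each direction). These shares are near the all-gene ones. Skil (SnoN), a nuclear repressor of Smad targets, had the largest rise among them, from 59.3 ± 1.9 to 373 ± 6 CPM from 2i/LIF and from 65.7 ± 3.0 to 311 ± 8 CPM from serum/LIF+2i (SD, n = 2). These are changes of 2.65 ± 0.05 and 2.24 ± 0.05 (log2, adjusted p = 1.36e-77 and 5.81e-72), which differed by -0.41 ± 0.08 (adjusted p = 2.07e-05). Fst, which binds activins, fell by 2.41 ± 0.12 and 2.23 ± 0.13 (adjusted p = 6.03e-37 and 2.29e-32), and Pmepa1, a membrane protein that sequesters Smads, by 2.48 ± 0.18 and 1.93 ± 0.16 (adjusted p = 8.59e-26 and 1.34e-20).

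Among targets in gastrulation, T (brachyury) fell from 28.0 ± 2.8 CPM to 0.381 ± 0.347 CPM (1 and 5 counts) at 40 h from 2i/LIF (SD, n = 2). For cells from serum/LIF+2i T went from 16.1 ± 3.2 CPM to at most 3 counts per library, at least 58.6-fold lower against a floor of 3 counts per library. Gsc went from 2.52 ± 0.34 and 1.91 ± 0.00 CPM at 0 h to 0 counts at 24 and 40 h in both media, at least 6.43-fold lower from 2i/LIF and 6.96-fold lower from serum/LIF+2i at 40 h. Eomes was higher than at 0 h at 12 h, by 0.66 ± 0.27 from 2i/LIF and by 0.74 ± 0.21 from serum/LIF+2i (log2, adjusted p = 0.0395 and 0.00139). The first call was lost with the DESeq2 Wald test (adjusted p = 0.143) and without 2i/LIF 0 h replicate 2 (0.25, adjusted p = 0.582) or 12 h replicate 2 (adjusted p = 0.218), and the second without serum/LIF+2i 0 h replicate 2 (adjusted p = 0.0792). At 40 h Eomes fell by 0.89 ± 0.35 and 1.05 ± 0.25 (log2, adjusted p = 0.018 and 0.000119), the first of which was lost with the DESeq2 Wald test (adjusted p = 0.0504) and on leaving out 2i/LIF 0 h replicate 1 (-0.39, adjusted p = 0.461) or 2i/LIF 40 h replicate 1 (-0.59, adjusted p = 0.203).

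**Figure D4:**
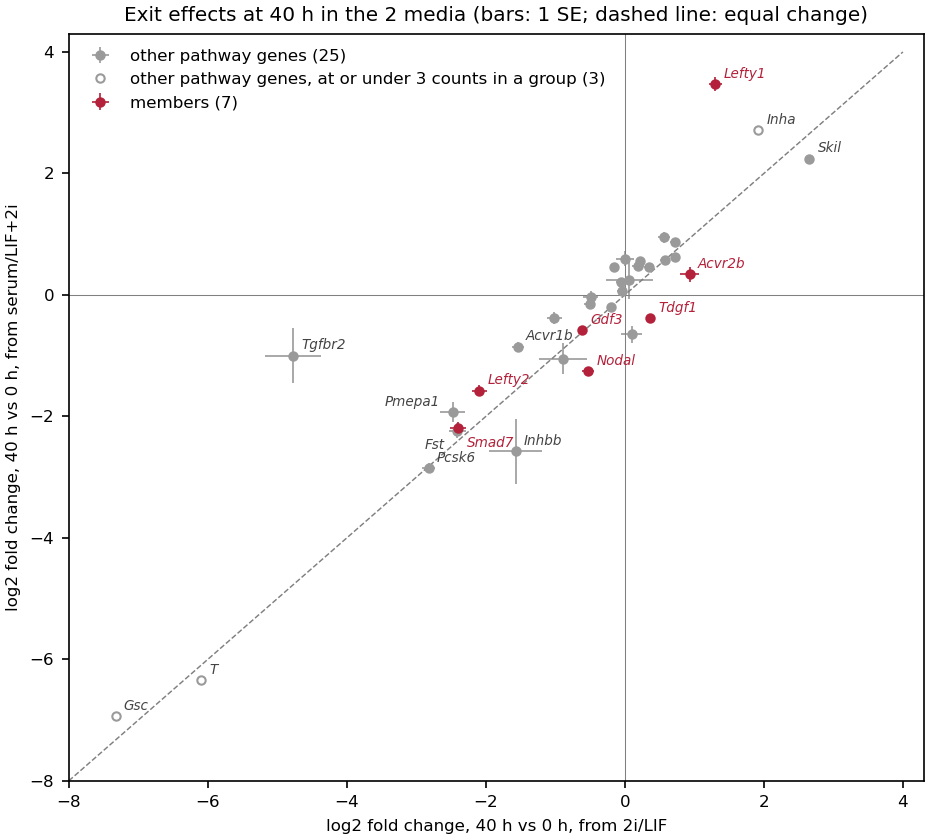
Change at 40 h against 0 h from serum/LIF+2i (vertical) against that from 2i/LIF (horizontal), both log2 fold changes with bars of 1 SE, for the 7 tested members and 28 other pathway genes; the dashed line marks equal change and both axes share the 0 h libraries of their medium. Open circles are fitted values, without bars, of 3 genes at or under 3 counts in a group; Lefty1 lies furthest above the line among the members, and Smad7, Pcsk6 and Fst lie close to it.

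**Figure D5:**
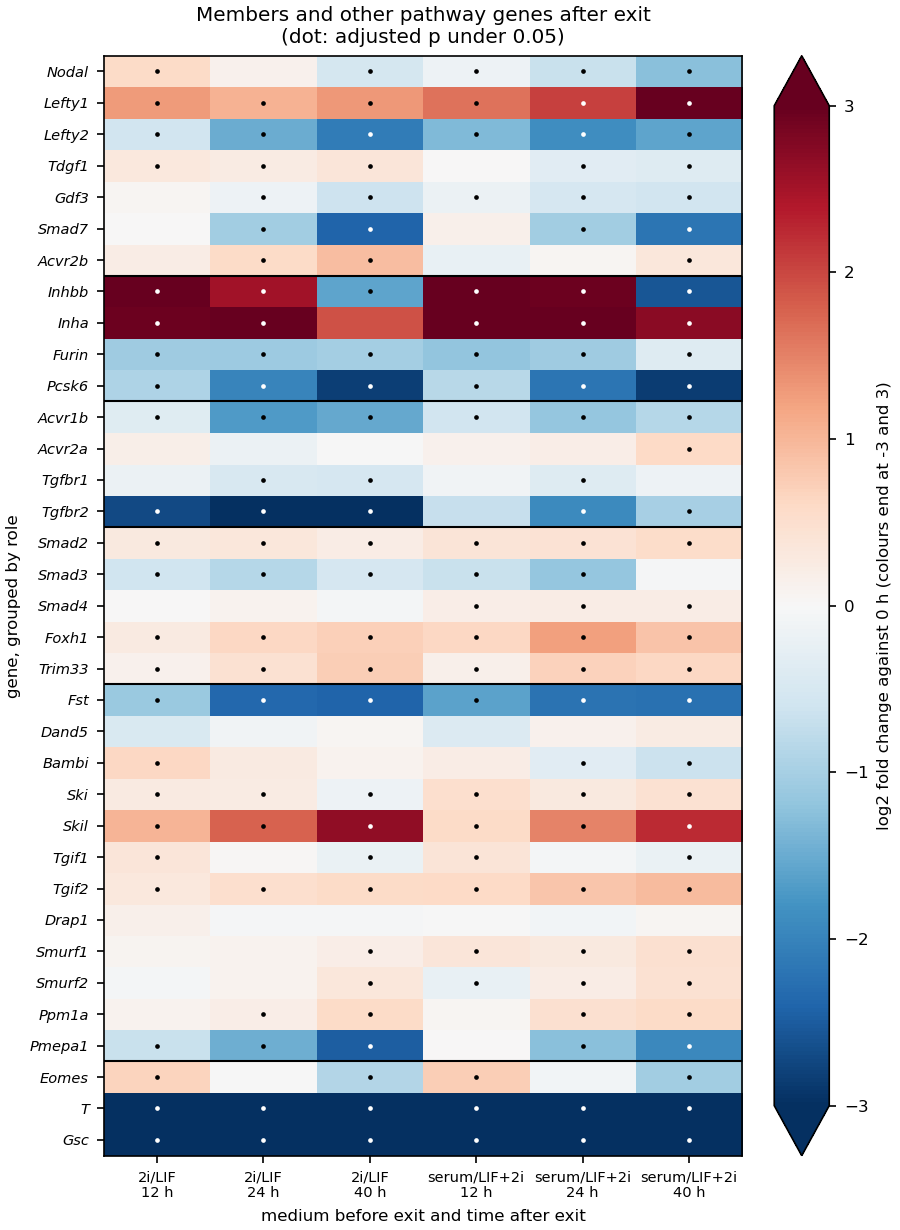
Log2 fold change against 0 h (colour, limited to between -3 and 3) of the 7 tested members (top) and 28 other pathway genes in blocks by role, in columns by medium and time after exit (h), with a dot where the adjusted p was under 0.05. Lefty1 and Skil are higher and Lefty2, Pcsk6, Fst and T lower in all 6 columns, while Inhbb turns from higher at 12 and 24 h to lower at 40 h.

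At 0 h 16 of the 28 were called between the media, 2 higher and 14 lower in serum/LIF+2i, with a median of -0.27 (33% of all genes, 14.6% higher and 18.4% lower). The 14 included the receptors Acvr1b (-0.55 ± 0.08, adjusted p = 2.02e-09) and Tgfbr2 (-2.59 ± 0.30, adjusted p = 1.44e-12), Foxh1 (-0.46 ± 0.08, adjusted p = 1.54e-06) and Fst (-0.62 ± 0.10, adjusted p = 1.23e-07). Nodal and Tdgf1 were higher in serum/LIF+2i at a time when more of the called pathway genes were lower. At 12, 24 and 40 h 14, 11 and 9 of the 28 were called, with 11, 9 and 6 of them lower (30.3%, 31.1% and 27.3% of all genes were called, 15.5%, 17% and 13.4% lower), so the count at 40 h was near the all-gene share. With the DESeq2 Wald test the 4 counts were 9, 9, 4 and 5. At 40 h the exit effects differed for 12 of the 28, 10 higher and 2 lower in serum/LIF+2i, with a median of 0.23, against 27.6% of all genes (14.8% higher, 12.8% lower). For each gene this is also the difference in level between the media at 40 h less that at 0 h. The medians of those differences in level were 0.015 at 40 h and -0.27 at 0 h, so the 0 h levels enter these calls.

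Markers of cell types that could also carry these genes were summed per library. The 10 endoderm markers were at 21.9 to 23.7 CPM at 0 h in 2i/LIF and 16.3 to 19.4 at 40 h, and from serum/LIF+2i at 15.6 to 16.3 and 23.1 to 23.8. In between they were lower, from 9.27 to 13.4 CPM over both media at 12 and 24 h, and up to 4 of the 10 were at 0 in a library. This sum hides changes in opposite directions. From 0 to 40 h Hhex fell from 11.7 to 4.13 CPM from 2i/LIF and from 8.74 to 4.89 CPM from serum/LIF+2i. Dab2 rose over the same time, from 1.12 to 8.43 CPM and from 2.72 to 9.77 CPM. Cubn also rose in both media. Dkk1 also fell from 2i/LIF, from 28 and 29 counts to 0 and 2 counts. From serum/LIF+2i Dkk1 had 3 and 4 counts at 0 h and 2 counts per library at 40 h, too few to tell a fall. The 4 mesoderm markers stayed between 0.760 and 5.43 CPM with up to 3 at 0. The 4 neurectoderm markers rose in sum from 0.759 to 1.03 CPM at 0 h to 27.2 to 32.3 at 40 h from 2i/LIF and from 3.97 to 4.85 to 51.7 to 56.5 from serum/LIF+2i, and thus the sum was highest where Lefty1 was highest. Most of it was Sox1, at 47.2 CPM in serum/LIF+2i at 40 h and 22.6 CPM in 2i/LIF at 40 h, whereas Pax6 was at 5.75 and 6.68 CPM there and at its highest mean, 9.81 CPM, in 2i/LIF at 24 h. The 4 markers of 2-cell-like cells, a rare state in ES cultures, were also highest in serum/LIF+2i at 40 h, at 32.0 to 34.4 CPM against 0.294 to 0.734 at 0 h in serum/LIF+2i, where Lefty1 was lowest. The 4 trophoblast markers fell in sum from 65.1 to 76.4 CPM at 0 h over both media to 2.04 to 4.74 at 40 h. Most of that sum at 0 h was Tfap2c, at 62.8 CPM in 2i/LIF and 55.4 CPM in serum/LIF+2i. From serum/LIF+2i Gata3 first rose, from 3.45 CPM at 0 h to 5.30 CPM at 12 h. The 4 fibroblast markers lay between 1.64 and 10.0 CPM with Postn at 0 in every group. The part of these cell types in the results above was not tested.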

How the data were processed

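RNA of 16 libraries was made with a stranded mRNA kit after TRIzol extraction, per the labels' protocols. The deposited table holds the authors' raw counts per gene with gene lengths, and fastp, STAR, featureCounts and mm10 are named per the submitters' processing notes. Their versions, the strand setting and the handling of reads that fit several genes are not given in the sources used here. Groups were taken from sample titles. Of 27179 genes, 5836 were at 0 in every library and 1049 had no symbol.

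Counts were filtered with filterByExpr (minimum count 10, minimum total 15), TMM-scaled and fitted in edgeR 4.0.16 (R 4.3.3) with robust glmQLFit, 1 term for each of the 8 groups and 8 residual degrees of freedom. The 19 contrasts, two-sided, were times within a medium, media at each time, and differences of those changes, always serum/LIF+2i minus 2i/LIF. P-values were adjusted over 14288 genes. An SE is the log2 fold change divided by the square root of F, and the common biological coefficient of variation was 3.19%. DESeq2 1.42.0 served as an alternative, and the others were another scaling, filter or set of libraries, a replicate block, counts of Lefty1 and Lefty2 added, and each library left out in turn. The procedure was tested on simulated data.

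All 8 members are described whatever their values, and other pathway genes come from a list of 36; 1 further gene is not reported here. Members and lists were chosen with earlier results of these data known. Genes named as similar are the 3 with the highest correlation of group means. Annotation is RefSeq GRCm38.p6 for positions and promoters and GENCODE M21 for transcripts, the same assembly as mm10.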

Additional observations from a re-analysis of the deposited data

Results flagged for a closer look

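The results below were singled out because a test of the difference between the media passed at an adjusted p under 0.05 in edgeR's quasi-likelihood test. Each value is a log2 difference, serum/LIF+2i minus 2i/LIF, in the change against 0 h or in the step between times. The values against 0 h of a gene all subtract its difference between the media at 0 h, so they are not separate results. That 0 h difference was 0.76 for Nodal and -1.83 for Lefty1. After exit the Nodal levels differed by 0.03, -0.04 and 0.03 at 12, 24 and 40 h. For Nodal the values at 12, 24 and 40 h were -0.73, -0.80 and -0.73. For Tdgf1 they were -0.29, -0.60 and -0.74 at the same times, and -0.30 in the step from 12 to 24 h. Gdf3 gave -0.23 at 12 h and -0.34 at 24 h, and 0.38 in the step from 24 to 40 h. Acvr2b gave -0.60 at 40 h.

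Lefty1 gave 1.00 at 24 h and 2.17 at 40 h, with 0.63 in the step from 12 to 24 h and 1.17 in the step from 24 to 40 h. Lefty2 gave -0.76, -0.38 and 0.52 at 12, 24 and 40 h, and 0.89 in the step from 24 to 40 h. The 12 h values of Gdf3 and Tdgf1, the 24 h value of Lefty2 and the 40 h value of Acvr2b are those that lost the call in alternatives named above.

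Among the other pathway genes the exit effects differed at 40 h for the convertase Furin (0.64), the receptors Acvr1b (0.69), Acvr2a (0.60), Tgfbr1 (0.36) and Tgfbr2 (3.78), and the Smads Smad2 (0.34), Smad3 (0.46) and Smad4 (0.28). Of the repressors and inhibitors Ski (0.61) and Tgif2 (0.38) were higher, and Skil (-0.41) and the pseudoreceptor Bambi (-0.75) lower. Besides Acvr2a and Tgfbr1, the calls of Smad3, Smad4 and Tgif2 were lost with DESeq2 (adjusted p = 0.0865, 0.0508 and 0.069). They were also lost without 2i/LIF 0 h replicate 2 or serum/LIF+2i 40 h replicate 2 for Smad3 (0.0998 and 0.0999), without 2i/LIF 0 h replicate 1 or serum/LIF+2i 0 h replicate 2 for Smad4 (0.0808 and 0.0835), and without 2i/LIF 0 h replicate 1 for Tgif2 (0.0905). Of the 28 pathway genes tested, the exit effects also differed for 5 at 12 h and 6 at 24 h, and the steps for 7 from 12 to 24 h and 7 from 24 to 40 h, against 9.2%, 20.8%, 17.1% and 12.2% of all genes. The Tgfbr2 value at 40 h rests on 2 and 4 counts in 2i/LIF at 40 h.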

How the results depend on the processing

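Counts of called members kept within 1.5 times their main value in most alternatives. Exceptions among the members were the change at 12 h from serum/LIF+2i (2 against 4 with Lefty1 and Lefty2 added), the 24 to 40 h step from serum/LIF+2i (3 against 5 with the DESeq2 Wald test, 3 to 5 when a library was left out) and the media at 24 h (2 against 4 with DESeq2 and with library-size scaling, 2 to 4 when a library was left out). Adding Lefty1 and Lefty2 turns 2 called members into 1, so part of the drop at 12 h was fixed by the adding. The 12 h difference of exit effects was 2 to 4 when a library was left out, lowest without serum/LIF+2i 0 h replicate 1. The lowest step count came without serum/LIF+2i 24 h replicate 1 or 2 or 40 h replicate 2, and the lowest media count without either 2i/LIF 24 h library or serum/LIF+2i 24 h replicate 2. For the pathway list between the media, DESeq2 gave 9 against 16 at 0 h, 9 against 14 at 12 h, 4 against 11 at 24 h and 5 against 9 at 40 h. Leaving out a library gave 9 to 14 at 12 h (lowest without serum/LIF+2i 12 h replicate 2), 4 to 11 at 24 h (lowest without 2i/LIF 24 h replicate 1 or serum/LIF+2i 24 h replicate 2) and 4 to 10 at 40 h (lowest without 2i/LIF 40 h replicate 1).

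With the counts of Lefty1 and Lefty2 added, the log2 change of the sum had the opposite sign to Lefty2 at 12 h (0.18) and to Lefty1 at 24 h (-0.31) and 40 h (-0.28) from 2i/LIF. From serum/LIF+2i it was opposite to Lefty1 at 12 h (-0.65) and 24 h (-0.70) and to Lefty2 at 40 h (0.34). It was also opposite to Lefty2 in the 24 to 40 h step from 2i/LIF (0.029), to Lefty1 in the 12 to 24 h step from serum/LIF+2i (-0.048), to Lefty2 between the media at 0 h (-0.23), and to Lefty1 in the difference of exit effects at 12 h (-0.83) and 24 h (-0.39). The sum takes in 2 genes that moved in opposite directions.

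Over all genes DESeq2 called 3115, 2668, 2729 and 2010 between the media at 0, 12, 24 and 40 h, against 4710, 4334, 4439 and 3897 with edgeR, and without 2i/LIF 40 h replicate 1 the last was 2240. For differences of exit effects DESeq2 called 574, 1789 and 2419 at 12, 24 and 40 h against 1315, 2966 and 3940, and for the steps 1240 and 783 against 2440 and 1743. The cause was not tested. Same-numbered libraries did not deviate together (correlations from -0.023 to 0.033 over 28 pairs of groups), so the numbers were not taken as a pairing. With a replicate block, 131 of 133 member values kept their call and direction and 2 were newly called. Cer1 had 5 counts in all, and its absence cannot be told apart from a level too low for this depth.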
